A study of Drosophila melanogaster with 6 samples.

Results

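The cell cycle and DNA replication genes described here are 28 genes, of 11982 genes named on the arrays, in S2* cells, a line of the Drosophila melanogaster S2 family, whose cells resemble macrophages. They were the members of a list of 40 genes for which at least 1 probe set was annotated to that gene alone, and 30 probe sets measured them. Of the 40, dap, Orc6, geminin, Mcm7, RnrS, CycA, Cdk1, stg, polo, aurA and BubR1 had no such probe set and were not analysed here, nor was E2f1, whose probe set was shared with Torsin. Cells were either exposed to 20-hydroxyecdysone (20E), the insect moulting steroid, at 1 µM for 24 h, or left untreated, and total RNA of 3 samples per group was hybridised to Affymetrix Drosophila 2.0 arrays. Both groups grew at 27 °C, and the Schneider's medium held 10% fetal bovine serum. The labels give neither a time nor a solvent for the untreated samples, so 20E, solvent and culture time cannot be told apart. Whether replicates came from separate cultures is not stated, so the spread behind each p-value is that of these samples and may be technical.

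A eukaryotic cell copies its DNA from origins that are first marked by the origin recognition complex (ORC), onto which the MCM helicase is loaded with the help of the Cdt1 protein, called Double parked in flies. Cyclin E with Cdk2 starts S phase, the E2F and Dp factors, held back by the retinoblastoma protein, drive transcription of many replication genes, and the clamp PCNA and ribonucleotide reductase supply the fork. Mitosis is then run by the B-type cyclins and by kinases such as Aurora B, and it ends when the anaphase-promoting complex (APC/C), activated by Fizzy and Fizzy-related, marks securin and cyclins for destruction. In imaginal and larval tissues 20E is known both to promote and to end proliferation, depending on the tissue and stage.

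Values are intensities after quantile normalization between arrays, and they show how a probe set differs between samples but not how abundant a gene is beside another gene. Differences are those of log2(intensity + 16), 20E minus untreated, in which the offset of 16 damps the noise of dim probe sets. The median deposited intensity per array lay between 43.2 and 56.4, with 9 to 456 empty cells per array, and all 30 probe sets had a value on every array. Over probe sets, which are not independent replicates, arrays of the same group correlated on the log2 scale with r from 0.868 to 0.952 among 20E samples and from 0.881 to 0.955 among untreated samples. 20E replicate 2 (r of 0.868 and 0.877 with its group) and untreated replicate 1 (0.881 and 0.918) correlated least with the other arrays of their groups. Between groups r ran from 0.803 to 0.887, so it overlapped the range within groups. Untreated replicate 1 correlated with 20E replicates 1 and 3 (0.887 and 0.883) slightly more than with untreated replicate 2 (0.881). Of 7 genes known to respond to 20E, 5 rose, while EcR and br did not pass the test at their brightest probe sets (adjusted p = 0.247 and 0.539). Hsp27, the strongest of them, stood at 2766 ± 235 in 20E cells and 37.7 ± 8.17 in untreated cells (SD, n = 3 each, adjusted p = 3.81e-05). Of 12 haemocyte markers, 4 rose (crq, vkg, Col4a1 and srp) and 1 fell, Nplp2, which averaged 101 ± 5.83 in 20E cells and 5167 ± 227 in untreated cells (SD, n = 3 each, adjusted p = 2.62e-05). The GATA factor gene srp averaged 1576 ± 676 in 20E cells and 308 ± 99.2 in untreated cells. The other 7 markers, Sr-CI, NimC1, Ppn, Pxn, Hml, He and eater, did not pass the test. In that order they averaged 22.1, 17.2, 93.2, 39.8, 47.0, 11.9 and 12.02 in 20E cells. In untreated cells they averaged −3.82, 27.0, 75.9, 54.1, 52.8, 9.60 and 12.8.

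In 20E cells 5 of the 12 measured genes of the replication machinery fell, as did Incenp. The other 22 of the 28 members, 7 replication genes among them, did not pass the test. Each gene was counted at its brightest probe set. By limma over all probe sets, with Benjamini-Hochberg adjustment, 6 of the 28 genes fell at an adjusted p under 0.05 and 0 rose. The 6 were the helicase subunit genes Mcm2, Mcm3 and Mcm5, the clamp gene PCNA, the origin gene Orc1 and the passenger complex gene Incenp. At a dimmer probe set, 1630777_at, fzy rose by the same test (adjusted p = 0.00372). The counts below take fzy as lower, from its brightest probe set, which was not called. Over all named genes, 2.82% were called lower and 3.73% higher. At an unadjusted p under 0.05, 14 members were lower and 1 was higher, against 10.1% and 10.5% of named genes. The members' median log2 difference, 20E minus untreated, was −0.59, beside −0.02 over all named genes, and 21 of 28 members lay below 0, as did 52.1% of named genes. In 15 of 28 members every 20E value lay below every untreated value, a pattern seen in 14.3% of named genes with all 6 values, and Rca1 alone among the members showed the opposite order, seen in 11.8%. A whole-culture sample cannot tell fewer cycling cells from less transcript per cell. Adjusted p of the 6 lay between 0.0195 and 0.0457, and the calls depended on single arrays. Without 20E replicate 1, 20E replicate 3, untreated replicate 2 or untreated replicate 3 no member was called. In that order, 0.977%, 1.05%, 0.985% and 0.659% of named genes were called lower. Without untreated replicate 1 Incenp alone was called, beside 1.7% of named genes. Without 20E replicate 2 Incenp, Orc1 and PCNA were, beside 2.78%. With an offset of 1 in place of 16 before the logarithm, 0 members were called lower, beside 1.4% of named genes.

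**Figure D1:**
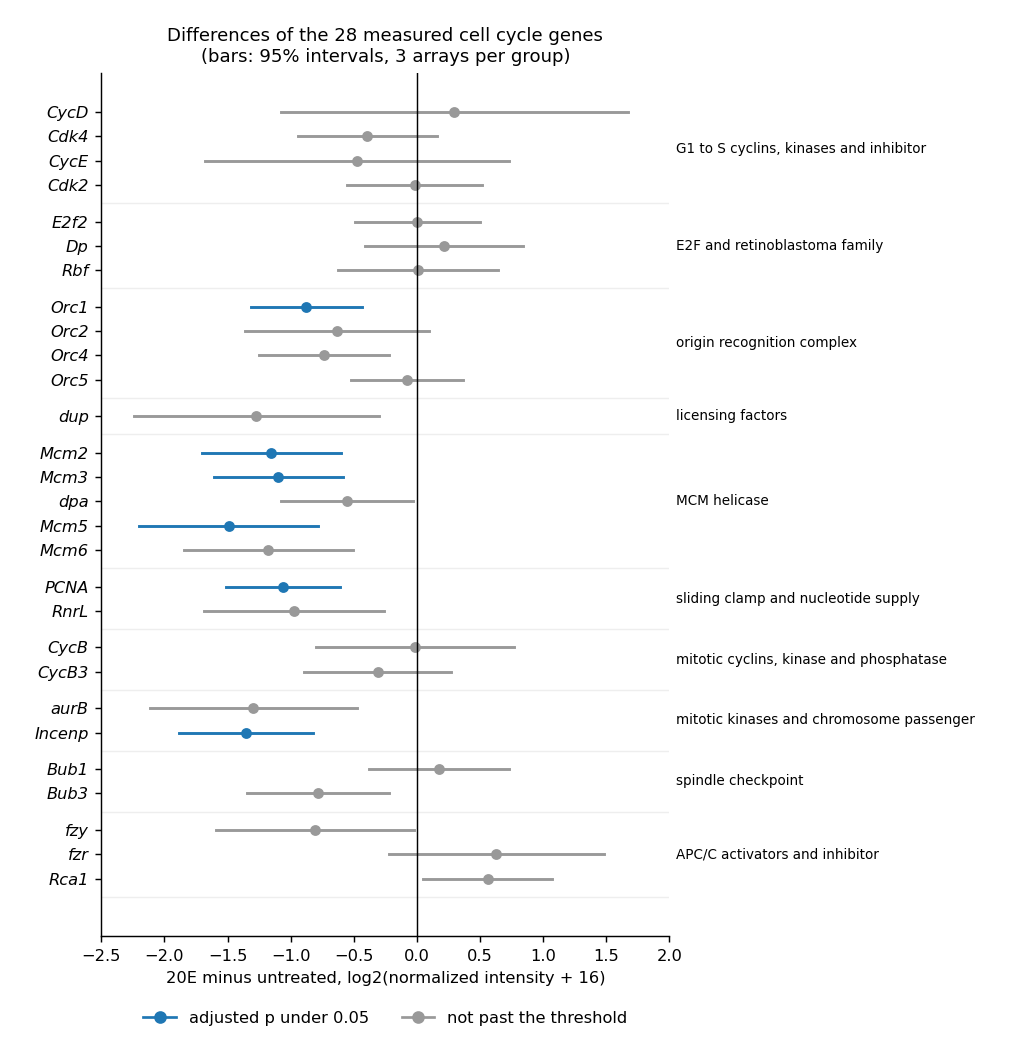
Log2 difference, 20E minus untreated (horizontal axis, log2 of normalized intensity plus 16), of the 28 measured genes by role, each at its brightest probe set. Points are the limma estimates and bars their 95% intervals from 3 arrays per group. Estimates of all 12 genes of origin recognition, licensing, the helicase, the clamp and nucleotide supply lie below 0. Those of the E2F and retinoblastoma genes lie between 0.00 and 0.22, and differences between roles were not tested.

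Split by role, the 12 replication genes had a median log2 difference of −1.02, with 5 called lower, 12 of 12 below 0 and 10 with groups that did not overlap. The other 16 members had a median of −0.02, with 1 called lower and 9 below 0. The split was drawn by gene function, but with earlier results of these data known, and the difference between the 2 sets of genes was not tested. Direction among the replication genes held in every setting tried for 11 of the 12, and Orc5, the exception, moved between −0.15 and 0.04.

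The MCM proteins form the ring-shaped helicase that unwinds DNA ahead of the fork, and 5 of its 6 subunits were measured. Mcm2 had normalized intensities of 138, 124 and 145 in 20E cells, against 414, 252 and 316 in untreated cells. The lowest untreated array was thus well above the highest 20E array. Mcm2 was 2.23-fold lower in 20E cells on the log2(intensity + 16) scale, a difference of −1.15 ± 0.23 (SE, n = 3 per group, adjusted p = 0.0388). Mcm3 read 164, 136 and 167 in 20E cells, against 421, 289 and 353 in untreated cells, without overlap. Its difference was −1.10 ± 0.22 (adjusted p = 0.0358), close to that of Mcm2. Mcm5 showed the lowest estimate of all members, with 142, 89.3 and 161 in 20E cells, against 528, 301 and 363 in untreated cells. That is a 2.81-fold lower level, or −1.49 ± 0.30 on the log2 scale (adjusted p = 0.0387). Of 16 alternatives, Mcm2 was called in 6, Mcm3 in 5 and Mcm5 in 7.

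The other helicase subunits had groups that did not overlap but missed the threshold. Mcm6 stood at 472, 305 and 443 in 20E cells, against 1179.8, 683 and 978 in untreated cells, a difference of −1.18 ± 0.28 (adjusted p = 0.0697). It was called in 4 of 16 alternatives, among them the filter on dim probe sets. The gene dpa, which encodes the Mcm4 subunit, had 209, 218 and 277 in 20E cells, against 392, 285 and 380.1 in untreated cells. The highest 20E array and the lowest untreated array were close together there, and the difference was −0.55 (95% interval −1.08 to −0.03, adjusted p = 0.262). The intervals of all 5 subunits overlap, and differences between subunits were not tested.

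**Figure D2:**
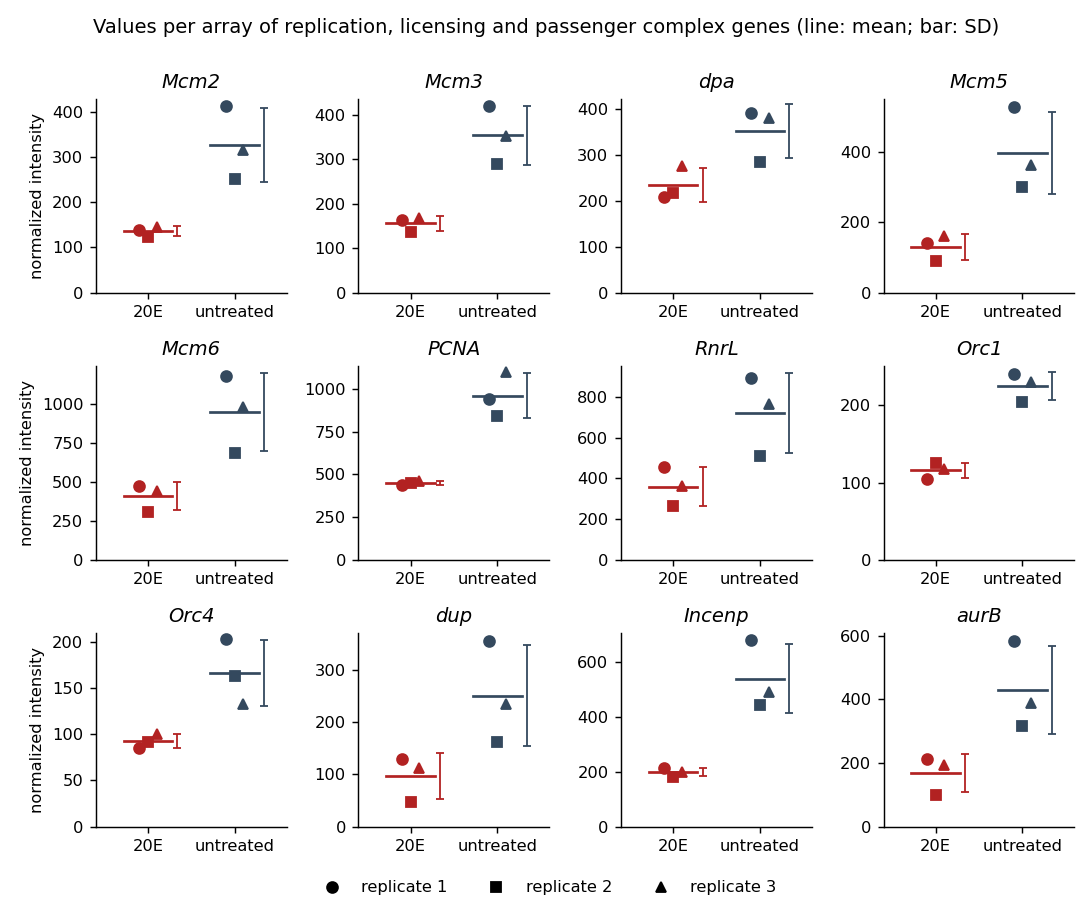
Normalized intensity (vertical axes, from 0) of 12 members in 3 samples of 20E cells (left) and 3 of untreated cells (right), with symbols for the replicate number, a line at the mean and a bar for the SD. All 12 were drawn from the 15 of 28 members in which every 20E value lies below every untreated value, so that order holds by choice of panels. Orc2 and Orc5, whose groups overlap, are not drawn. In most panels untreated replicate 1 is the highest array.

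PCNA encodes the ring that holds DNA polymerase on the template. It read 439, 449 and 463 in 20E cells, against 940.2, 841 and 1102 in untreated cells. The 20E arrays lay within a narrow band, far below the lowest untreated array. PCNA fell 2.08-fold, by −1.06 ± 0.19 on the log2 scale (adjusted p = 0.0266). Across 16 alternatives its difference ran from −1.14 to −0.90, and it was called in 8 of them. RnrL, the large subunit of the reductase that makes deoxynucleotides, had 454, 262 and 362 in 20E cells, against 895, 509 and 765 in untreated cells. Its groups did not overlap, but both varied more, and the difference of −0.97 ± 0.30 was not called (adjusted p = 0.141), nor was it in any alternative (lowest adjusted p = 0.0554).

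ORC proteins bind origins through the cycle, and Orc1 is the subunit whose abundance is known to be regulated by the cell cycle in flies. Orc1 had 105, 125 and 117 in 20E cells, against 241, 205 and 230.2 in untreated cells. Groups were tight and far apart, and Orc1 fell 1.83-fold, by −0.88 ± 0.18 (adjusted p = 0.0457). The call lies close to the threshold and held in 5 of 16 alternatives. Orc4 read 84.5, 91.8 and 99.7 in 20E cells, against 203, 163 and 132 in untreated cells, also without overlap. Its difference of −0.74 ± 0.22 was not called (adjusted p = 0.124). For Orc2 the arrays of 20E cells gave 41.8, 19.4 and 54.1 and those of untreated cells 82.8, 50.7 and 64.4. These groups overlap, and the difference was −0.63 ± 0.31 (adjusted p = 0.373). Orc5 had the smallest estimate of the 4 subunits measured, with 81.1, 72.9 and 92.9 in 20E cells, against 94.5, 80.3 and 87.9 in untreated cells. Its difference of −0.08 had a 95% interval of −0.52 to 0.37, which overlaps those of Orc1, Orc2 and Orc4, and differences between subunits were not tested. The RefSeq gene table lists Orc1 as overlapping PIG-G, whose probe set differed by 0.12 (adjusted p = 0.892). Of the 28 members 13 overlap another gene in that table, and for 9 of these a neighbour was measured, by 11 probe sets in all. Their adjusted p ran from 0.0878, for ppk19 beside Bub3 (difference 1.77), to 0.924.

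The licensing factor gene dup encodes the fly Cdt1, which loads the helicase and is destroyed in S phase. It read 130, 46.4 and 113 in 20E cells, against 355, 162 and 234 in untreated cells. The groups did not overlap, but the arrays of each group spread widely, and the difference of −1.27 ± 0.41 missed the threshold (adjusted p = 0.159).

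The drivers of the G1 to S step showed no call. CycE, whose product starts S phase, had 87.3, 14.1 and 69.7 in 20E cells, against 113, 47.3 and 71.1 in untreated cells. The arrays of both groups overlap, and the low value of 20E replicate 2 sets much of the difference of −0.47 ± 0.51 (adjusted p = 0.726), which was 0.08 without that array. Its partner gene Cdk2 read 87.8, 95.1 and 70.3 in 20E cells, against 108, 68.1 and 83.1 in untreated cells. That is a difference of −0.02, with a 95% interval of −0.55 to 0.52. CycD, the growth-linked G1 cyclin gene, had 237, 46.2 and 160 in 20E cells, against 181, 63.3 and 79.8 in untreated cells. The samples of each group scattered widely, and the interval of −1.08 to 1.67 around 0.30 allows a change in either direction. Without 20E replicate 2 and untreated replicate 1 together, CycD was the 1 member called higher, by 1.32 (adjusted p = 0.047), and without 20E replicate 1 its difference was −0.13. Cdk4, the kinase partner of cyclin D, had 98.3, 68.4 and 95.5 in 20E cells, against 149, 101 and 110 in untreated cells. The groups are separated by a narrow gap, and the difference was −0.39 ± 0.23 (adjusted p = 0.470).

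Among the E2F and retinoblastoma genes, none of 3 measured members was called, by limma, at an adjusted or an unadjusted p under 0.05. E2f2, known as a repressing E2F, read 195, 181 and 246 in 20E cells, against 226, 178 and 214 in untreated cells. Rbf, the retinoblastoma gene, had 166, 112 and 191 in 20E cells, against 181, 116 and 164 in untreated cells. In both genes the groups interleave. Their differences were 0.00 (95% interval −0.49 to 0.50) and 0.01 (−0.63 to 0.64), and both turned below 0 on leaving out some single arrays. Dp, the shared partner of both E2F proteins, averaged 282 ± 61.4 in 20E cells and 242 ± 60.8 in untreated cells (SD, n = 3 each), a difference of 0.22 with an interval of −0.41 to 0.84. The intervals of these 3 genes reach above 0 and below 0. Those of 10 of the 12 replication genes lay below 0, but they are not adjusted for the number of probe sets, and 5 of the 12 were called. The intervals of E2f2, Rbf and Dp overlap that of dpa (−1.08 to −0.03), and the difference between these genes and the replication genes was not tested.

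The B-type cyclin genes did not pass the test. CycB, which with Cdk1 drives entry into mitosis, read 1192, 639 and 1051 in 20E cells, against 1330, 723 and 864 in untreated cells. The groups overlap, the difference was −0.02 ± 0.33 (adjusted p = 0.989) and its 95% interval ran from −0.80 to 0.77. CycB was above 0 without normalization between arrays (0.10) and with median centring (0.02), so no direction is given for it. CycB3 had 94.8, 100.2 and 60.8 in 20E cells, against 133, 98.7 and 94.2 in untreated cells, a difference of −0.31 ± 0.25 (adjusted p = 0.604).

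Incenp, the scaffold that holds Aurora B in the chromosome passenger complex, was the called mitotic gene. It had 213, 182 and 201 in 20E cells, against 682, 444 and 493 in untreated cells. All 20E arrays were close together and far below the untreated ones, and Incenp fell 2.55-fold, by −1.35 ± 0.22 (adjusted p = 0.0195). Of the 6 falls it was the call kept most often, in 10 of 16 alternatives, with differences between −1.46 and −1.14. The kinase gene of the same complex, aurB, read 211, 99.3 and 193 in 20E cells, against 584, 317 and 389 in untreated cells. The groups did not overlap and the estimate was nearly that of Incenp, at −1.30 ± 0.35, but with a larger error it was not called (adjusted p = 0.0957).

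Of the spindle checkpoint genes none was called, by limma, at an adjusted p under 0.05. Bub3, a WD-repeat protein of the checkpoint, had 352, 328 and 266 in 20E cells, against 700.0, 447 and 533 in untreated cells, without overlap. Its difference was −0.78 ± 0.24 (adjusted p = 0.135). The checkpoint kinase gene Bub1 read 118, 94.6 and 165 in 20E cells, against 103, 104 and 114 in untreated cells. Those groups overlap, with a difference of 0.18 and a 95% interval of −0.38 to 0.73. The intervals of Bub3 and Bub1 overlap, and the difference between these genes was not tested.

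Genes of APC/C control held the members' highest estimates. Rca1, the inhibitor of Fizzy-related, had 252, 269 and 287 in 20E cells, against 227, 152 and 161 in untreated cells. Every 20E array was above every untreated array, and the difference of 0.56 ± 0.22 missed the threshold (adjusted p = 0.245). The gene fzr, whose product starts APC/C activity in cells that leave the cycle or endocycle, read 72.8, 26.3 and 64.3 in 20E cells, against 36.0, 14.8 and 34.7 in untreated cells. Its groups overlap through the low 20E replicate 2, and the difference was 0.63 with a 95% interval of −0.22 to 1.48 (adjusted p = 0.455). A further probe set, shared with BaraC, was not used.

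The gene fzy, the mitotic APC/C activator known as Cdc20 in vertebrates, was measured by 3 probe sets that disagree. The brightest, 1636341_at, had 217, 108 and 156 in 20E cells, against 413, 219.9 and 247 in untreated cells. These groups do not overlap and the difference was −0.81 ± 0.33 (adjusted p = 0.279). Probe set 1630777_at had 256, 393 and 174 in 20E cells, against 28.1, 16.9 and 17.3 in untreated cells. It was 7.58-fold higher in 20E cells, by 2.92 ± 0.32 on the log2 scale (adjusted p = 0.00372), the only called rise among the 30 probe sets, where 3.02% of all probe sets were called higher. The untreated values are near the size of the offset, and the log2 difference was 1.95 with an offset of 64 and 3.62 with an offset of 1. The call was lost in 1 of 16 alternatives, without variance moderation, with an adjusted p of 0.0512. The third, 1636855_at, averaged 28.9 ± 7.95 in 20E cells and 21.9 ± 7.01 in untreated cells (SD, n = 3 each), with a difference of 0.25 (adjusted p = 0.679). In the RefSeq gene table of Release 6 plus ISO1 MT the ends of fzy and the neighbouring gene cact overlap. The probe sets of cact differed by 0.24 (adjusted p = 0.810) and −0.13 (adjusted p = 0.924). With the mean of the 3 probe sets fzy was at 0.79 (adjusted p = 0.0648), so no direction is given for the gene. What transcript 1630777_at measures was not tested.

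**Figure D3:**
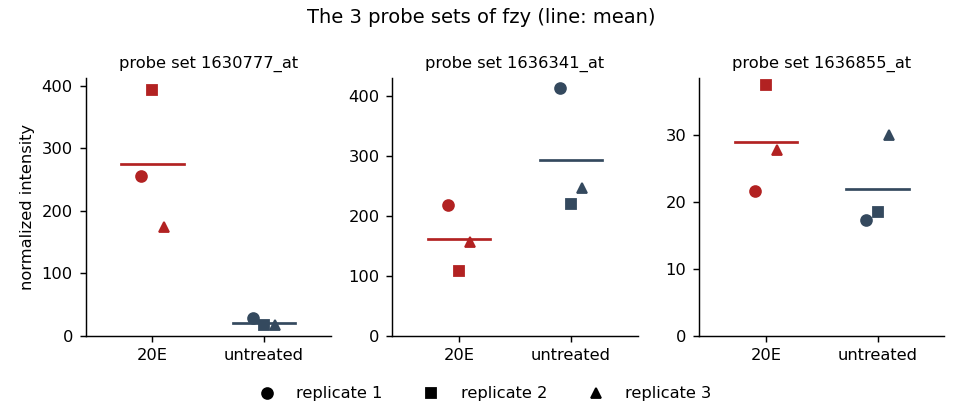
Normalized intensity (vertical axes, from 0, each panel with its own scale) of the 3 probe sets of fzy in 20E cells (left) and untreated cells (right), with a line at the mean. The first lies between 174 and 393 in 20E cells and between 16.9 and 28.1 in untreated cells, the second runs the other way, and the third overlaps.

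The members also moved together within each group. Untreated replicate 1 was the highest untreated array for 26 of 28 members and untreated replicate 2 the lowest for 25, while over all named genes these shares were 52.5% and 44.8%. 20E replicate 2 was the lowest 20E array for 20 of 28 members, beside 46.5% of named genes. The median member stood 0.57 above its own mean over all arrays in untreated replicate 1, and 0.03 and 0.21 above it in untreated replicates 2 and 3. In 20E replicates 1, 2 and 3 it stood at −0.10, −0.50 and −0.24. Compared array against array, the median difference between a 20E array and an untreated array ran from −1.04 for 20E replicate 2 against untreated replicate 1 to −0.11 for 20E replicate 1 against untreated replicate 2, while the median of all named genes stayed between −0.08 and 0.02. CycD and CycE varied most within groups, with SEs of 0.58 and 0.51 on their log2 differences. CycB, dup, aurB, fzr and the brightest probe set of fzy also varied widely, with SEs of 0.33, 0.41, 0.35, 0.36 and 0.33. PCNA and Orc1 varied little, with SEs of 0.19 and 0.18. With both 20E replicate 2 and untreated replicate 1 left out, the members' median difference was −0.31, beside −0.01 over all named genes, and Incenp, Mcm5, Orc1 and PCNA were called lower.

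**Figure D4:**
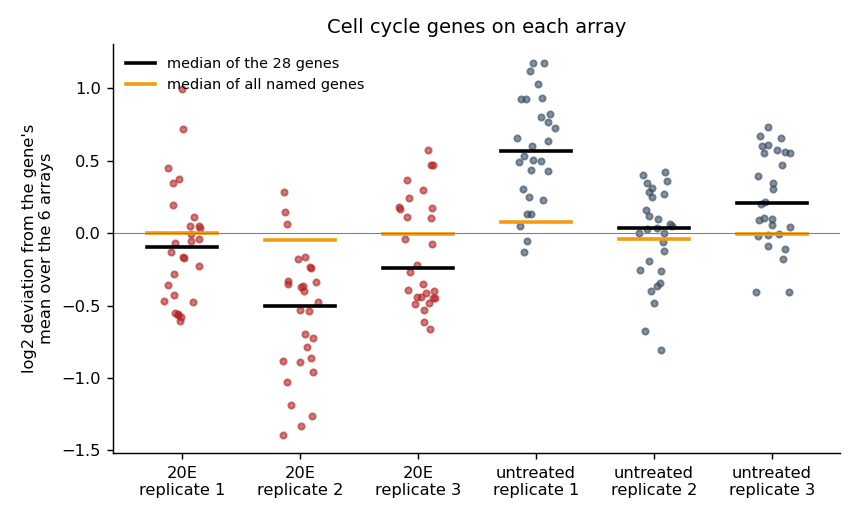
Log2 deviation of each of the 28 genes from its own mean over the 6 arrays (vertical axis), by array, with 20E samples on the left. Black lines are the medians of the 28 genes, from −0.50 in 20E replicate 2 to 0.57 in untreated replicate 1, and orange lines the medians of all named genes with a value on every array, from −0.05 to 0.07.

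Further cell cycle genes that are no members gave a like picture for the fork, on lists chosen with earlier results of these data known. Over all named genes 2.82% were called lower and 3.73% higher, and 52.1% lay below 0. By limma at an unadjusted p under 0.05, 10.1% of named genes were lower. Of 16 genes of the replication fork and of Okazaki fragment maturation, 6 fell, 0 rose and all 16 lay below 0, with a median difference of −0.90. RfC4, a subunit of the loader that places PCNA on DNA, averaged 146 in 20E cells and 624 in untreated cells, a difference of −1.99 ± 0.21 (adjusted p = 0.00356). The loader genes RfC3 and RfC38 fell as well, with differences of −1.47 and −1.38 (adjusted p = 0.00818 and 0.0134). RPA2, of the complex that coats single-stranded DNA, differed by −1.11 (adjusted p = 0.0220). Of 10 genes of chromatin assembly and nucleotide supply, 3 fell and all 10 lay below 0. These 3 supply nucleotides, namely the thymidylate synthase gene Ts at −1.55, dUTPase at −1.50 and the deoxyribonucleoside kinase gene dnk at −1.17 (adjusted p = 0.0121, 0.0125 and 0.0231). Of 9 other initiation genes, 0 passed by limma, with 2 lower at an unadjusted p under 0.05 and a median of −0.43.

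Other parts of the cycle were covered by further lists, over which the background of 2.82% lower and 3.73% higher also holds. At an unadjusted p under 0.05 by limma, the background was 10.1% lower and 10.5% higher. Of 19 further centromere, kinetochore and checkpoint genes 2 fell, namely cid, the centromeric histone gene, at −1.04 (adjusted p = 0.0242) and the kinetochore gene Nnf1a at −1.16 (adjusted p = 0.0444). Of 14 spindle and cytokinesis genes, tum, a subunit of centralspindlin, fell by 1.25 (adjusted p = 0.0269) and the septin gene Septin1 rose by 1.34 (adjusted p = 0.0451, n = 2 arrays of 20E cells, replicate 2 being empty, and 3 of untreated cells). In the list of G1/S ligases and growth input 5 of 7 genes lay above 0, with a median of 0.65, and by unadjusted p under 0.05 2 were higher and 2 were lower. The called gene there was Cks30A, which encodes a small Cdk-binding protein and fell by 1.41 (adjusted p = 0.0369). By limma, 0 genes passed among 14 of APC/C, securin and separase, 14 of cohesin and condensin, 11 of mitotic entry and the DNA damage checkpoint, 7 of centriole duplication and 5 of the Myb complex, with 1, 3, 0, 1 and 2 lower at an unadjusted p under 0.05 and 1 higher, of mitotic entry and the checkpoint. Over all 126 genes of these lists, 13 fell and 1 rose, with a median difference of −0.45, and the fallen numbered 2, 13 and 3 without 20E replicate 1, 2 or 3 and 6, 4 and 1 without untreated replicate 1, 2 or 3.

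**Figure D5:**
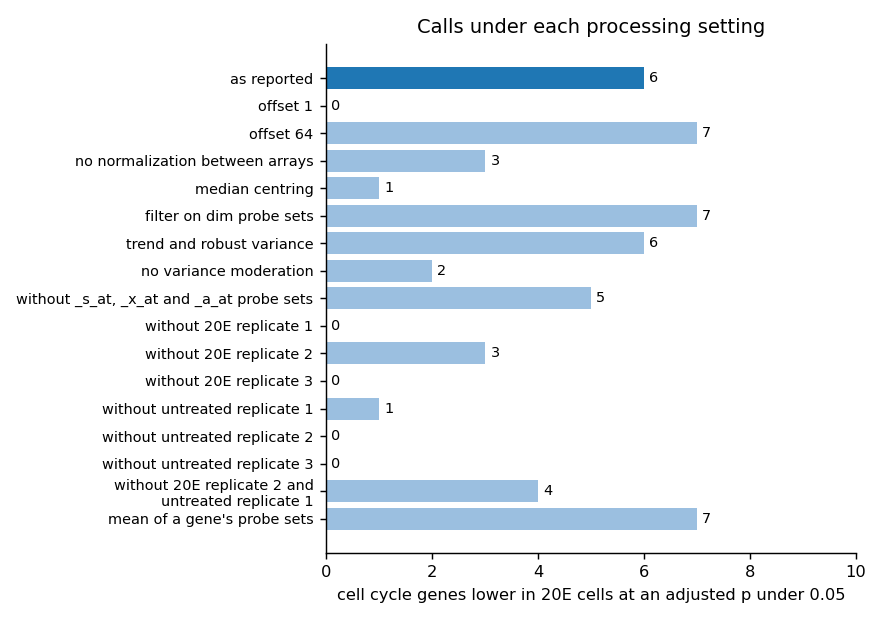
Number of the 28 genes lower in 20E cells at an adjusted p under 0.05 (horizontal axis, from 0) in the comparison as reported and under the other settings that hold no replicate block. Among those drawn, the count is 6 as reported, and runs from 0, with an offset of 1 and without any of 4 single arrays, to 7 with an offset of 64, with the filter on dim probe sets and with the mean of a gene's probe sets.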

How the data were processed

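The values deposited by the authors are linear intensities, 1 for each probe set on each array, and how probes were summarised, background-corrected and scaled is not given in the sources used here. Some deposited values were below 0 (1.99% to 5.29% per array) and 736 were empty. Intensities were quantile normalized between arrays, values below 0 set to 0, and log2(intensity + 16) compared between groups by the two-sided moderated test of limma 3.58.1 (lmFit, eBayes; R 4.3.3), with Benjamini-Hochberg adjustment over 18767 probe sets and a threshold of 0.05. Quantile normalization removes a shift shared by most transcripts. A fold is 2 to the power of the log2 difference and understates changes of dim probe sets. A gene was represented by its probe set with the highest mean log2 value. Names came from a platform annotation updated through a RefSeq gene table, which matched 13544 of 13647 single-gene probe sets. The members and lists were chosen with earlier results of these data known. All members were named, and up to 4 called genes of each other list by adjusted p. Same-numbered samples were not taken as pairs in the main comparison, since the labels give only a shared number. Their deviations from the group means correlated by 0.238, 0.374 and −0.0202. 20E replicates 1 and 2 correlated best with their own number and 20E replicate 3 with untreated replicate 1 (0.338). These values do not settle whether samples were paired. The number of arrays limits precision.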

Additional observations from a re-analysis of the deposited data

How the results depend on the processing

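The 6 calls among the members and the 13 falls and 1 rise on the other lists depend on the processing. Where computed, the members' median difference stayed below 0 (−0.81 to −0.31). It was not computed for the mean of a gene's probe sets. The value of −0.81 covers only the 21 members left after dropping probe sets with the suffixes _s_at, _x_at and _a_at. With an offset of 1, 567 probe sets (957 as reported), 0 members and 6 falls and 0 rises on the other lists were called. An offset of 64 gave 21 falls and 2 rises on those lists. Without normalization between arrays 3 members and 2 rises on the lists were called, and with median centring 1 member. Without variance moderation the counts were 397 probe sets, 2 members, 5 falls and 0 rises. On the probe sets left after dropping those with the suffixes _s_at, _x_at and _a_at, 629 and 0 rises were called. Leaving out 20E replicate 2 and untreated replicate 1 together, chosen after seeing the data, gave 2183 probe sets, 1 member higher (CycD) and 5 rises. On leaving out single arrays, called probe sets ran from 326 to 1173, members lower from 0 to 3, falls on the lists from 1 to 13 and rises from 0 to 2. Same-numbered samples share only a number, and 20E replicates 1 and 2 correlated best with their own while 20E replicate 3 did not. The replicate block gave 954 probe sets, 8 members lower, 11 falls and 0 rises on the lists, with dup, aurB and Mcm6 passing (adjusted p = 0.0386, 0.0385 and 0.0359) and Orc1 not.

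Several members not called changed sign. With the mean of its probe sets fzy was at 0.79, against −0.81 at the brightest. Without normalization Cdk2 was at 0.0731, Orc5 at 0.0401 and CycB at 0.10, and with median centring CycB was at 0.0188. Without both of those arrays CycE was at 0.36, Cdk2 at 0.0544, Orc5 at 0.0413 and CycB at 0.47. On leaving out single arrays CycD ran from −0.13 to 0.90, CycE from −0.81 to 0.0775, Cdk2 from −0.15 to 0.13, E2f2 from −0.12 to 0.0881, Rbf from −0.16 to 0.21, CycB from −0.20 to 0.25 and Bub1 from −0.0143 to 0.35. No cause of these changes was tested. The filter on dim probe sets, the trend and robust variance model and the mean of a gene's probe sets moved no count by more than 1.5 times. The arrays carry no detection calls, so signal over background could not be judged.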
